A study of Mus musculus with 12 samples.

Results

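RNA captured by the antibody J2 was compared with input RNA in intestinal epithelium of mice lacking KAT2A and KAT2B, called DKO. The libraries were chosen by genotype and library kind, which gave 2 J2 libraries and 2 input libraries, 4 of the 12 libraries of the series. Each J2 library has an input library from the same animal, called animal 1 and animal 2 here. The animals were females aged 3 months. KAT2A and KAT2B had been deleted with tamoxifen at 100 mg/kg, injected into the peritoneum daily for 4 days, and samples were collected 2 days later. The labels call the material epithelial cells of the whole intestine, while their protocol has the cells released with EDTA from the proximal part of the small intestine. The promoter that drove the recombinase is not given in the sources used here. The 2 control mice of the series received vehicle only, so that genotype and tamoxifen cannot be told apart. Control libraries are used below only where DKO is set beside control or where they share an estimate of the spread, and libraries of a further antibody, K1, only where J2 is set beside it.

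Long double-stranded RNA forms where transcripts of opposite strands pair, or where a transcript folds back on itself at an inverted repeat. Mitochondria are a known source, because both strands of their circular genome are transcribed over nearly its whole length and the surplus strand is normally degraded. J2 recognises RNA helices with little regard to their sequence, so a pulldown with it is used to enrich transcripts that hold such helices. Whether a given transcript was captured through a helix of its own was not tested here. In the cytosol double-stranded RNA is read by sensors such as MDA5 and PKR. KAT2A and KAT2B are related acetyltransferases that modify histones and other proteins.

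The input libraries held 11247141 and 11224786 gene-assigned counts in animals 1 and 2, and the J2 libraries 5826361 and 2691285. The J2 libraries stood further apart than the input libraries. Of the genes tested, 44.6% were more than 2-fold apart between the 2 J2 libraries and 2.92% between the 2 input libraries, and Pearson's r of log2 values across genes was 0.890 against 0.983. Reads aligned to several places made up 15.8% and 29.5% of the listed reads in J2 against 7.82% and 8.05% in input, and reads outside genes 10.23% and 10.98% against 26.14% and 25.05%. Kat2a had 84 and 148 counts in DKO input, where the control inputs had 222 and 228. Kat2b had 118 and 114 counts against 359 and 343. Both genes were lower than in control in each DKO input library, but their transcripts were still present.

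Relative to input, the J2 libraries of both animals were rich in mitochondrial ribosomal RNA, in structured small RNAs such as Terc, and in a long noncoding RNA with an inverted repeat. They were poor in mRNAs of small subunits of the respiratory chain, in defensin mRNAs of Paneth cells, and in single noncoding transcripts such as 4933431E20Rik and Xist. Without pairing the animals, edgeR's quasi-likelihood test called 18 of 13918 genes at an adjusted p under 0.05, which is 0.129% of them. The 6 genes that rose are 0.0431% of those tested and the 12 that fell 0.0862%. All 18 stood at an adjusted p of 0.0470, while 3612 genes had an unadjusted p under 0.05 and 782 an adjusted p under 0.06, so many genes lay just past the threshold. With the animal as a replicate block, called the paired test below, 1845 genes were called (13.3%), 595 higher (4.28%) and 1250 lower (8.98%). These include all 18. Of the 1845, 1844 had the same sign in both animals, which selection on these same values favours, so it is no separate support. The filter on low counts was passed through the J2 libraries alone by 209 of the 595 and through the input libraries alone by 708 of the 1250, meaning that at least 1 library of the other group lay under its minimum. Such a gene could hardly be tested in the opposite direction. Those named below that passed through J2 alone include Gm11407, Gm11408, Rmrp, Mir3473a, Gm25776, Gm22579, Gm37967, Gm14945, Col3a1 and Col1a2. Those that passed through input alone include Gm24357, Gdap10, Ppnr, Gm43745, E230020D15Rik, Usmg5, Defa17 and Nts. For all of these the call gives no support for a direction. With the control input and J2 libraries in the fit to share the estimate of the spread, 4088 of 15923 genes were called (25.7%), 1948 higher (12.2%) and 2140 lower (13.4%), including 1767 of the 1845.

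Both tests are given below, since the number of calls depends on which is used. The unpaired test has 2 residual degrees of freedom and the paired test 1, and both rest on 2 animals only. In the paired fits of J2 against input and against K1 the estimated prior degrees of freedom were infinite. Each gene's spread was then taken from all genes, so a paired p does not measure that gene's own spread between the animals. "Rose" and "fell" are used for genes that passed the test named beside them. Differences and their SE are J2 minus input on the log2 scale from the unpaired fit, also where the p is from the paired test, and counts are given in the order animal 1, animal 2. They are relative to the library's other RNA. The median difference of all genes was 0.04 with TMM scaling and -0.20 with library totals alone, where 0 genes passed the unpaired test and 3254 had an unadjusted p under 0.05. Without the J2 library of animal 1 the unpaired test called 7726 genes and without that of animal 2 it called 6901, against 39 and 58 without an input library. In these 3-library fits the lone library of a group is assumed to vary like the pair of the other. By rank, both J2 libraries lay above both input libraries for 24.7% of the genes and below both for 31.9%.

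**Figure D1:**
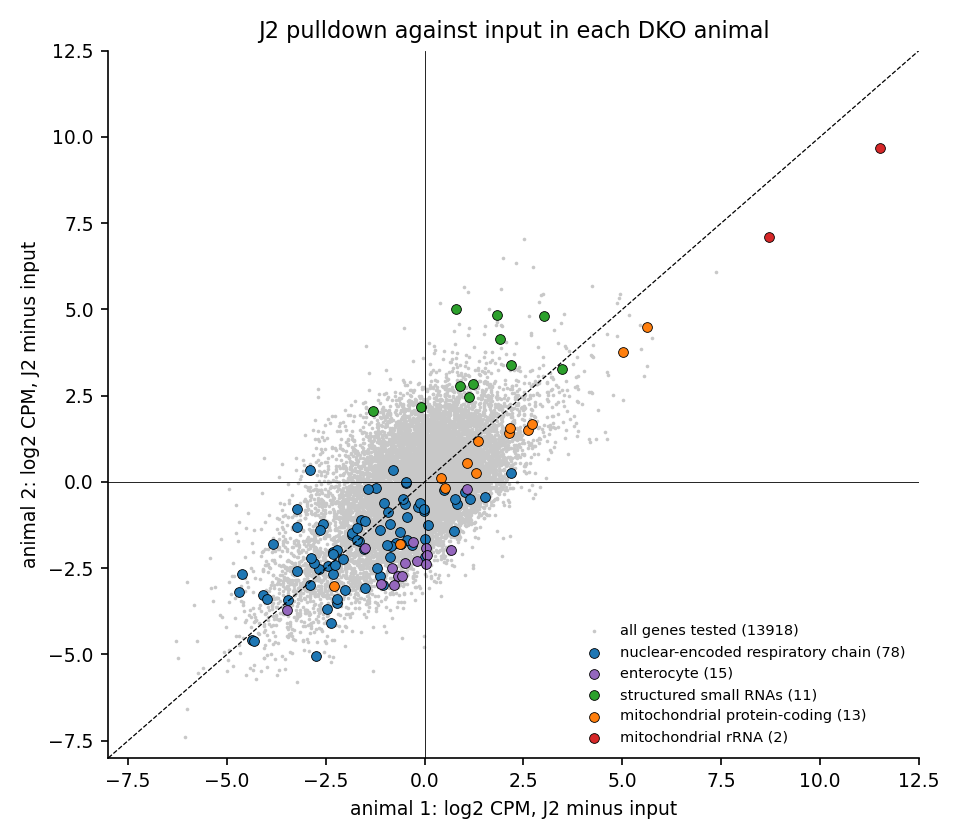
Each point is 1 of the 13918 genes tested. The horizontal axis gives J2 minus input in animal 1 and the vertical axis the same in animal 2, both in log2 CPM. Coloured points mark mitochondrial ribosomal RNA (2 genes), mitochondrial protein-coding genes (13), structured small RNAs (11), the nuclear-encoded respiratory chain (78) and enterocyte markers (15). The mitochondrial ribosomal RNAs stand highest in both animals, respiratory chain genes mostly lie below 0 in both, and enterocyte markers lie lower in animal 2 than in animal 1.

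Mitochondrial ribosomal RNA showed the largest gain among the genes of the mitochondrial chromosome. The small ribosomal RNA mt-Rnr1 had 26 and 43 counts in input and 4271 and 1555 in J2. Both J2 libraries were far above both input libraries, and mt-Rnr1 rose in the unpaired test, by 8.09 on the log2 scale (SE 0.87, adjusted p 0.0470; 8.71 in animal 1 and 7.11 in animal 2). The large ribosomal RNA mt-Rnr2 had 57 and 88 counts in input and 62730 and 18221 in J2. It rose in the paired test (adjusted p 0.00200), by 11.53 in animal 1 and 9.68 in animal 2, and its unpaired adjusted p was 0.0522. Together the pair took 0.000738% and 0.00117% of the gene-assigned counts in input and 1.15% and 0.735% in J2. Ribosomal RNA had been depleted from these libraries, so the input level of these genes is what remained after that step. Strand was ignored in counting, so reads of the ribosomal RNAs and of transcripts opposite to them cannot be told apart.

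The 13 protein-coding genes of the mitochondrial chromosome did not move together. Their median difference was 1.30, or 1.35 in animal 1 and 1.19 in animal 2, beside 0.04 for all genes. The lowest value was -2.59 (mt-Cytb) and the highest 5.18 (mt-Nd6). The unpaired test called 0 of the 13, with 4 higher and 1 lower at an unadjusted p under 0.05, the paired test 2 higher (mt-Co3 and mt-Atp8) and 0 lower, and the fit with control libraries 7 higher and 1 lower. Both J2 libraries lay above both inputs for 9 of the 13 (69.2%, beside 24.7% of all genes) and below both for 2 (15.4%, beside 31.9%). Every one of the 13, like both ribosomal RNAs, had a higher J2 minus input value in animal 1 than in animal 2. As a share of all counts, the 13 genes went from 3.26% and 3.21% in input to 11.96% and 8.02% in J2.

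The highest values belonged to a pair of complex I genes that overlap tail to tail. mt-Nd6 is the 1 protein-coding gene on the opposite strand of the mitochondrial genome, and its annotated end overlaps that of mt-Nd5 by 14 bases. mt-Nd6 had 4644 and 4870 counts in input and 80759 and 26621 in J2, and mt-Nd5 had 35484 and 35406 counts in input and 403636 and 116279 in J2. For each of them both J2 libraries were above both input libraries, also per gene-assigned count. The differences were 5.18 for mt-Nd6 (SE 1.59, adjusted p 0.0979, paired 0.138) and 4.54 for mt-Nd5 (SE 2.67, adjusted p 0.329, paired 0.518). Neither passed, although mt-Nd6 had 5.62 and 4.49 in animals 1 and 2, and mt-Nd5 5.01 and 3.75. Counts were made without strand, so reads of mt-Nd5 and of the transcript opposite to it cannot be told apart.

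The other complex I genes mt-Nd1 (2.61 and 1.51 in animals 1 and 2) and mt-Nd2 (2.71 and 1.67) were above input in both animals without passing, and mt-Nd4 had 1.30 in animal 1 and 0.27 in animal 2. mt-Co3, a subunit of complex IV, had 734 and 752 counts in input and 1161 and 541 in J2, and rose in the paired test (1.90, SE 0.50, adjusted p 0.0480). mt-Atp8, a subunit of ATP synthase, had 129 and 145 counts in input and 204 and 96 in J2, and also rose in the paired test (1.84, SE 0.43, adjusted p 0.0130). Scaled to depth, both J2 libraries were above both inputs for each, at 280 and 171 CPM for mt-Co3 against 62.7 and 58.1. In the other direction, mt-Cytb, the mitochondrial subunit of complex III, went from 45326 and 45821 counts to 3262 and 1386, below input in both animals (-2.59, SE 0.96, paired adjusted p 0.222). mt-Co1, the catalytic subunit of complex IV, had -0.63 in animal 1 and -1.80 in animal 2, and did not pass. mt-Cytb is the next protein-coding gene after mt-Nd5 on the same strand. Of the 13 genes, 7 have a copy elsewhere with at least 97% identity over at least 50% of their length, so reads may have been split between copies.

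**Figure D2:**
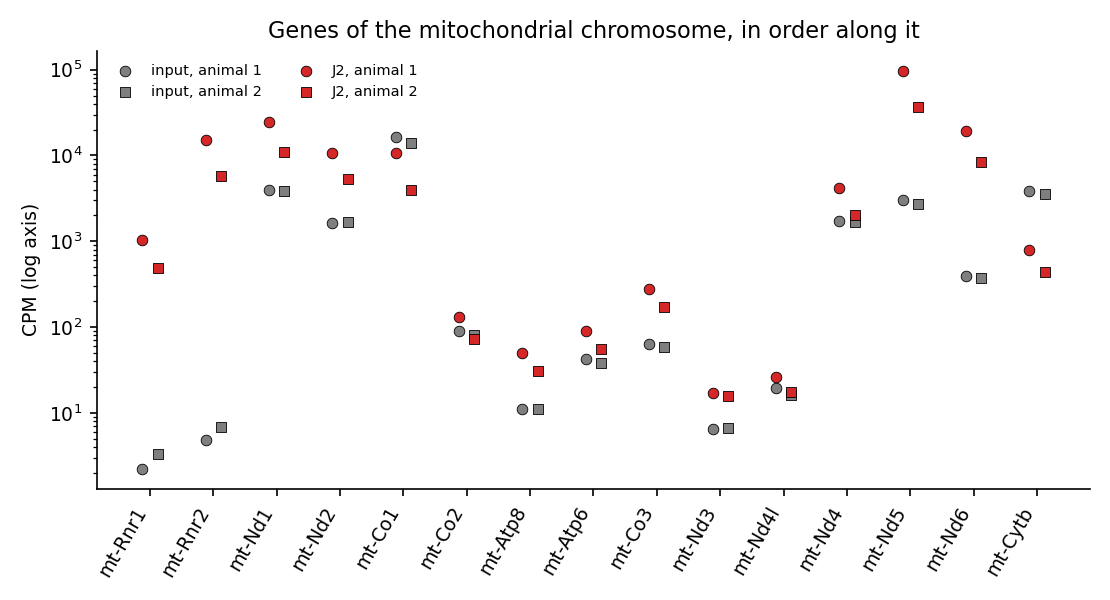
Level of the 2 ribosomal RNAs and 13 protein-coding genes in each of the 4 libraries, in CPM on a log axis, ordered along the mitochondrial chromosome. Points show single libraries, coloured by input and J2. The ribosomal RNAs are near the bottom in input and far higher in J2, mt-Nd5 and mt-Nd6 lie higher in J2 in both animals, and mt-Cytb lies lower.

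Nuclear copies of mitochondrial genes followed. Gm11407 and Gm11408 are adjacent processed pseudogenes on chromosome 4 (GRCm38, chr4:80002331-80003388 on the plus strand and chr4:80003396-80003914 on the minus strand). Gm11407 is 92.3% identical to mt-Nd5 over 100% of its length, and Gm11408 is 93.6% identical to mt-Nd6. Gm11408 had 12 and 14 counts in input and 869 and 286 in J2 and rose by 7.14 (SE 0.67, unpaired adjusted p 0.0470). Gm11407 had 9 and 9 counts in input and 103 and 58 in J2 and rose by 4.86 (SE 0.55, unpaired adjusted p 0.0470). All J2 values were above all input values for both, but both passed the filter on low counts through J2 alone. Reads of the mitochondrial genes that aligned to these copies were not separated from reads of the copies themselves, and which of the 2 gave the counts was not tested.

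Another pseudogene, Gm17541, had 20 and 17 counts in input and 245 and 197 in J2, and rose by 5.32 (SE 0.46, unpaired adjusted p 0.0470). Both J2 libraries were close together and above both inputs. Of 436 processed pseudogenes tested, 28.2% were higher and 10.6% lower in the paired test, with a median difference of 0.92. The filter was passed through J2 alone by 84 of the 123 that were higher, and through input alone by 45 of the 46 that were lower. Protein-coding genes, tested in the same fit, had 3.13% higher, 5.66% lower and a median of 0.10.

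Most of the structured small RNAs tested were higher in J2 than in input. The list holds the RNA subunits of ribonucleases and telomerase, 7SK and 7SL RNA, vault RNA, Y RNA, minor spliceosomal RNAs and Cajal body RNAs. Of its 18 genes, 11 could be tested, and the median difference was 2.94, with 1.22 in animal 1 and 3.26 in animal 2. The unpaired test called 0 of the 11, with 8 higher at an unadjusted p under 0.05, and the paired test 7 higher and 0 lower. Of these 7, Rmrp and the vault RNA Vaultrc5, with 10 and 2 counts in input, passed the filter on low counts through J2 alone. For this pair neither the call nor the order of the libraries gives support for a direction. The median was 1.42 without the J2 library of animal 2. Both J2 libraries lay above both inputs for 9 of the 11 (81.8%, beside 24.7% of all genes). The value of animal 2 was above that of animal 1 for 10. Among the others, Rny1, Rny3, Rnu11 and Scarna10 had 0 counts in all 4 libraries.

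Rmrp, the RNA of the endonuclease RNase MRP that matures ribosomal RNA, had 3 and 3 counts in input and 16 and 42 in J2. Over both animals the J2 level was 32.7-fold that of input, with a 95% exact interval of 14.1 to 92.6 that covers counting error only. It rose in the paired test (adjusted p 1.38e-05) and had an unpaired adjusted p of 0.0522, but passed the filter on low counts through J2 alone. Its counts are uncertain, since Ccdc107 overlaps it on the other strand and strand was ignored in counting. Terc, the template RNA of telomerase, had 76 and 84 counts in input and 125 and 221 in J2, or 6.49 and 6.49 CPM against 30.18 and 70.04. It rose by 2.94 in the paired test (SE 0.52, adjusted p 6.00e-05), with both J2 libraries above both inputs. The Cajal body RNA Scarna13 rose in the paired test from 69 and 49 counts to 89 and 365 (3.82), and Scarna6 from 30 and 18 to 19 and 166 (3.84). For these last 2 the J2 level of animal 2 was several times that of animal 1, and without that library the differences were 2.17 for Scarna13 and 1.24 for Scarna6.

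Rpph1, the RNA of RNase P, which trims the leader of tRNA precursors, was the most abundant of the list in J2. It had 50313 and 52263 counts in input and 196558 and 122423 in J2, above input in both animals, with a difference of 3.37 that did not pass (SE 2.16, adjusted p 0.367, paired 0.552). Rn7sk, the RNA that holds the elongation factor P-TEFb inactive, did not move the same way in both animals. Its counts were 117008 and 116996 in input and 16685 and 117945 in J2, lower in animal 1 by 1.31 and higher in animal 2 by 2.05. The 7SL genes Rn7s1 and Rn7s6, the RNA of the signal recognition particle, rose in the paired test by 1.94 and 2.18 (1.14 and 1.42 without the J2 library of animal 2), while Rn7s2 had 2.10 (paired adjusted p 0.0528). Rn7s1 and Rn7s2 are identical to each other over 100% of their length, so their counts are uncertain.

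Small RNA genes as a whole did not share a direction. Of 83 annotated small RNA genes up to 500 bases long, 27 rose and 27 fell in the paired test, and the median difference was -0.04. Of those that fell, 26 passed the filter on low counts through input alone and 23 had at most 3 counts in each J2 library, and of those that rose 11 passed it through J2 alone, so these counts give no support for a direction. Genes similar to 7SK had a median of 1.19 in animal 1 and 4.46 in animal 2 over 7 genes, of which 3 rose. Those similar to 7SL had 1.1665 and 2.82 over 4, of which 3 rose. Animal 2 gave the larger value for each of these groups. The 19 small nucleolar and Cajal body RNAs with an ACA near the 3′ end, the sign of the class that guides pseudouridylation, had a median of 0.35 in animal 1 and 0.93 in animal 2. Snora23, a member of that class, had 616 and 579 counts in input and 449 and 1833 in J2 and rose in the paired test (2.82, adjusted p 0.0298), with a difference of 1.18 without the J2 library of animal 2. Among 14 genes of small nuclear RNA 9 were called lower, and each of the 9 passed the filter through input alone.

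A set of small RNAs with large fitted rises in the paired test is shown with Gm24357, which fell in the unpaired test, and with Rmrp. Whether their predicted folds bear on their levels in the pulldown was not tested. Sequences are from the GENCODE M21 transcripts (GRCm38), 5′ to 3′, and capitals mark bases paired in the minimum free energy fold that RNAfold predicts for the naked RNA. Mir3473a (chrX:162874918-162874995, minus strand) is a microRNA hairpin. Gm25776 (chr12:91573430-91573572, minus strand) and Gm22579 (chr9:15316676-15316808, plus strand) are snoRNA genes. Gm24357 (chr9:15315522-15315595, plus strand) is a snoRNA gene that fell, and Rmrp lies at chr4:43492788-43493058 on the minus strand, opposite an overlapping gene, Ccdc107.
Mir3473a: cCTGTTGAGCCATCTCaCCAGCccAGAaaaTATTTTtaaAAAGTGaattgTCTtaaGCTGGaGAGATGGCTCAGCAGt
Gm25776: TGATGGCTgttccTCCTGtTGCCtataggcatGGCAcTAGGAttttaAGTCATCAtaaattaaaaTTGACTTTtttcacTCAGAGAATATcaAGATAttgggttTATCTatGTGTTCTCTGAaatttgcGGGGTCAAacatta
Gm22579: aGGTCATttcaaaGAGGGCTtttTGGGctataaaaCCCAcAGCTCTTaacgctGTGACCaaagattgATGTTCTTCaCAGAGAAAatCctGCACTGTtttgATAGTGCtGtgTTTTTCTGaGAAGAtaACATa
Gm24357: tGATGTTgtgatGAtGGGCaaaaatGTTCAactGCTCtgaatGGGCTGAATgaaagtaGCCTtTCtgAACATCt
Rmrp: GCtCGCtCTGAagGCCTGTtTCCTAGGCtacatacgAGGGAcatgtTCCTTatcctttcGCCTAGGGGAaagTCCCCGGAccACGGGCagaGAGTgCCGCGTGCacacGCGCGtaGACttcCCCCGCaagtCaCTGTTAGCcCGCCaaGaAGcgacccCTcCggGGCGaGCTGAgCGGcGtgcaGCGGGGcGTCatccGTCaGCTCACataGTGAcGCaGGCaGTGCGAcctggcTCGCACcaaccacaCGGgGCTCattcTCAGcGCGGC

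Mir3473a had 0 and 0 counts in input and 29 and 28 in J2, at least 32.5-fold higher, and rose in the paired test. Its predicted fold is a single hairpin with 74.4% of bases paired and a longest run of 15 base pairs. Gm25776 rose from 6 and 4 counts to 17 and 232 (6.51) and Gm22579 from 10 and 8 to 17 and 246 (5.77), both in the paired test. These differences were 3.31 and 2.49 when the J2 library of animal 2 was left out. Gm24357 had 573 and 543 counts in input and 2 and 0 in J2. It fell in the unpaired test, to a level 165-fold lower over both animals (95% exact counting interval 45.6 to 1366), with 56.8% of its bases paired and a longest run of 6. Gm22579 and Gm24357 both lie within Taf1d, a host gene of snoRNAs, whose difference of 1.98 did not pass (adjusted p 0.195), and Gm22579 has an identical copy elsewhere.

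**Figure D3:**
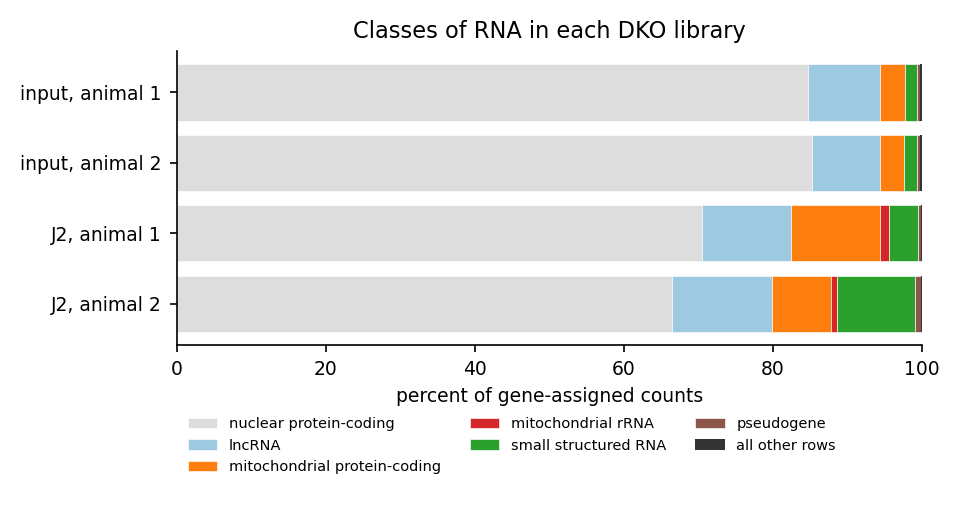
Stacked bars show the percent of gene-assigned counts that each gene class took in each of the 4 libraries. Nuclear protein-coding genes took 84.7% and 85.3% in input and 70.5% and 66.5% in J2. Small structured RNAs went from 1.65% and 1.67% to 3.92% and 10.5%, and the long noncoding class from 9.76% and 9.18% to 11.965% and 13.4%.

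Most of the long noncoding share was a single gene. Gm26917 held 8.26% and 7.85% of the counts in input and 11.4% and 11.6% in J2, and its difference of 0.81 did not pass (SE 3.43, adjusted p 0.903). Without the 10 most abundant genes of each library, the class held 1.83% and 1.61% in input and 0.819% and 1.01% in J2. Among long noncoding RNAs with known roles, Malat1, a nuclear speckle RNA, had 74326 and 61347 counts in input and 13123 and 27962 in J2, lower in animal 1 by 1.00 and higher in animal 2 by 0.90. Xist, which coats the inactive X chromosome, had 9382 and 9167 counts in input and 212 and 430 in J2. It fell in the paired test by 3.01 on the log2 scale (SE 0.73, adjusted p 0.0120), and both J2 libraries were below both inputs.

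Inverted repeats mark transcripts that can fold into a long helix of their own. The lincRNA Gm14963 (chr19:6268795-6276605, minus strand, GRCm38) had 87 and 102 counts in input and 607 and 404 in J2. That is 7.66 ± 0.317 CPM against 137 ± 13.1 CPM (SD, n = 2), with both J2 libraries close together and far above input. It rose by 4.16 in the unpaired test (SE 0.44, adjusted p 0.0470). Its longest transcript holds a pair of arms of 169 bases, 314 bases apart, that are complementary at 147 bases. The arms are shown because they are the longest such repeat among the genes that rose. Both are printed as in the transcript, and capitals mark bases that match the reverse complement of the other arm. Arm 1 lies at chr19:6269686-6269854 and arm 2 at chr19:6269203-6269371, both read on the minus strand.
Gm14963 arm 1: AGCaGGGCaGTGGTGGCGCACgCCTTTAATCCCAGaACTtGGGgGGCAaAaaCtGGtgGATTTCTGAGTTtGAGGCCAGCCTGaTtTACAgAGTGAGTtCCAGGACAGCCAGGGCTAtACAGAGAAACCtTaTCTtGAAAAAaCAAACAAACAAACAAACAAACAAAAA
Gm14963 arm 2: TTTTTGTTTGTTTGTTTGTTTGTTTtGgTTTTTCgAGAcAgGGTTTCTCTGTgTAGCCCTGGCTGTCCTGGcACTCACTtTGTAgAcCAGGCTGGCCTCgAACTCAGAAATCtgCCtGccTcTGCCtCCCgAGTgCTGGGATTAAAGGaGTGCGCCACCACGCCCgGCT

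A search for such repeats in the longest transcript of every gene, with arms of at least 50 bases and 80% identity, found them in 21 of 591 genes that rose in the paired test (3.55%), in 23 of 1246 that fell (1.85%) and in 270 of all 13886 searched (1.94%). Of the 21, Gm14945, Gm42372 and Gm37729 are among those that passed the filter on low counts through J2 alone. So did 209 of all 595 genes that rose, and 708 of the 1250 that fell passed through input alone. These shares therefore give no support for a direction. Long transcripts hold more of them. With protein-coding genes split into 4 equal bins by transcript length, in the longest bin they were in 10 of 105 genes that rose (9.52%), in 12 of 64 that fell (18.8%) and in 134 of all 3004 (4.46%), so in that bin the share was highest among genes that fell. Besides Gm14963, the genes that rose with the longest arms included Slc35e2 (2.34), Knl1, a kinetochore scaffold (2.49), Ppp1r7 (2.22) and Rnf168 (3.53), all in the paired test. Without the J2 library of animal 1 the differences were 1.42 for Slc35e2 and 1.20 for Ppp1r7. Rnf168, the ubiquitin ligase that marks chromatin at DNA breaks, went from 142 and 148 counts to 731 and 304, above input in both animals. The pseudogene Gm14945 had 0 and 0 counts in input and 25 and 6 in J2.

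Other protein-coding genes that rose in the paired test had no shared role on the lists used. Rpa1, a subunit of the complex that binds single-stranded DNA, had 84 and 109 counts in input and 573 and 162 in J2 (3.60, SE 0.58). Eid3 had 94 and 96 counts in input and 169 and 391 in J2 (3.41, SE 0.61). Nr2f6, an orphan nuclear receptor, had 6.76 ± 0.381 CPM in input and 60.6 ± 1.41 in J2 (SD, n = 2; 3.16, SE 0.39), and its exons overlap those of Ocel1 on the other strand. Both J2 libraries were above both inputs for these 3 genes. Nop56, a core protein of box C/D snoRNPs and itself a snoRNA host gene, rose from 294 and 515 counts to 343 and 1704 (3.26), and Myc, a growth regulator, from 430 and 655 to 446 and 1739 (2.91). Left without the J2 library of animal 2, Nop56 had 1.37 and Myc 1.32. Nop56 and Myc were higher in animal 2, while Mcl1, an inhibitor of apoptosis (2.73), and Fbxl19 (2.63) were higher in animal 1. Fbxl19 had 1.47 without the J2 library of animal 1. Gm37967, a transcript of unknown kind, rose in the unpaired test from 3 and 3 counts to 64 and 65, a level 72.6-fold higher over both animals (95% exact counting interval 32.5 to 202).

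Collagen transcripts were also higher, though mainly in 1 library. Col1a1 had 20 and 14 counts in input and 397 and 42 in J2, Col3a1 8 and 6 against 124 and 11, and Col1a2 18 and 8 against 137 and 16. With Col6a1 these 4 of 8 tested stromal and muscle markers rose in the paired test, and the median of the 8 was 3.11. Of the 4, Col3a1 and Col1a2 passed the filter on low counts through J2 alone. The list's calls, its median and the order of libraries that follows therefore give no support for a direction. Scaled to depth both J2 libraries were above both inputs for 6 of the 8 (75%, beside 24.7% of all genes), with animal 1 highest for the collagens. When that library was left out, the differences were 3.22 for Col1a1 in place of 5.28, 2.55 for Col3a1 in place of 4.85 and 2.21 for Col1a2 in place of 4.15, and the median was 1.82. The defining markers Dcn, Lum, Acta2, Myh11 and Des could not be tested, with at most 9 counts in any of the 4 libraries. The list's summed counts were 257 and 165 in input and 821 and 139 in J2. The part of such cells in these values was not tested. Each J2 library is set against input of the same animal, so these differences do not measure the number of such cells.

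mRNAs of the nuclear-encoded respiratory chain were low in J2. Of 78 genes tested, both J2 libraries lay below both inputs for 61 (78.2%, beside 31.9% of all genes). The median difference was -1.59, or -1.51 in animal 1 and -1.70 in animal 2. The unpaired test called 0 higher and 2 lower, and the paired test 0 higher and 39 lower. Both unpaired calls are subunits of complexes that also hold mitochondrial-encoded subunits. Uqcrb, of complex III, had 671 and 883 counts in input and 11 and 8 in J2, or 62.8 ± 7.71 CPM against 2.60 ± 0.0855 (SD, n = 2), and fell by 4.59 on the log2 scale (SE 0.45, adjusted p 0.0470). Cox7a2, of complex IV, had 1167 and 1538 counts in input and 19 and 15 in J2, and fell by 4.54 (SE 0.45, adjusted p 0.0470).

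All 5 complexes shared the direction. Complex IV had the lowest median, -2.49 over 13 genes with 10 lower in the paired test. ATP synthase had -1.68 over 17 genes (9 lower), complex III -1.55 over 8 (4 lower), complex I -1.30 over 36 (15 lower) and complex II -1.17 over 4 (1 lower). No gene of any complex rose. The small subunits Ndufa4, Atp5l, Cox7b and Cox7c were among those that fell. Usmg5, an accessory subunit of ATP synthase, is outside the list and fell in the unpaired test from 326 and 455 counts to 3 and 2, a level 46.2-fold lower over both animals (95% exact counting interval 19.7 to 143). Higd2a, which takes part in assembling complex IV, fell there from 659 and 829 counts to 20 and 11 (-3.84, SE 0.44). These mRNAs are short, with a median transcript length of 1026 bases against 3414 for all protein-coding genes tested. The shortest of 4 equal length bins of protein-coding genes, 204 to 2228 bases, had a median difference of -0.29, with 11.8% lower and 2.92% higher in the paired test.

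Other lists of short mRNAs had medians below 0, but not all had more lower calls than the 8.98% of all genes. Among 76 cytosolic ribosomal protein genes, 20 were lower and 1 higher in the paired test, with a median of -0.75. Among 77 mitochondrial ribosomal protein genes 3 were lower, a smaller share than among all genes, and 1 was higher, with a median of -0.46. Of 40 replication-dependent histone genes, whose mRNAs end in a stem-loop in place of a poly(A) tail, 12 were lower and 1 higher, with a median of -1.38. B2m, the light chain of MHC class I, had 26799 and 27024 counts in input and 1043 and 444 in J2, and fell in the paired test (-3.48, SE 0.85, adjusted p 0.0379). Zinc finger genes of the Zfp family, which have longer transcripts, had a median of 0.30 over 252 genes. In the paired test 14 were higher and 6 lower, beside 4.28% and 8.98% of all genes.

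**Figure D4:**
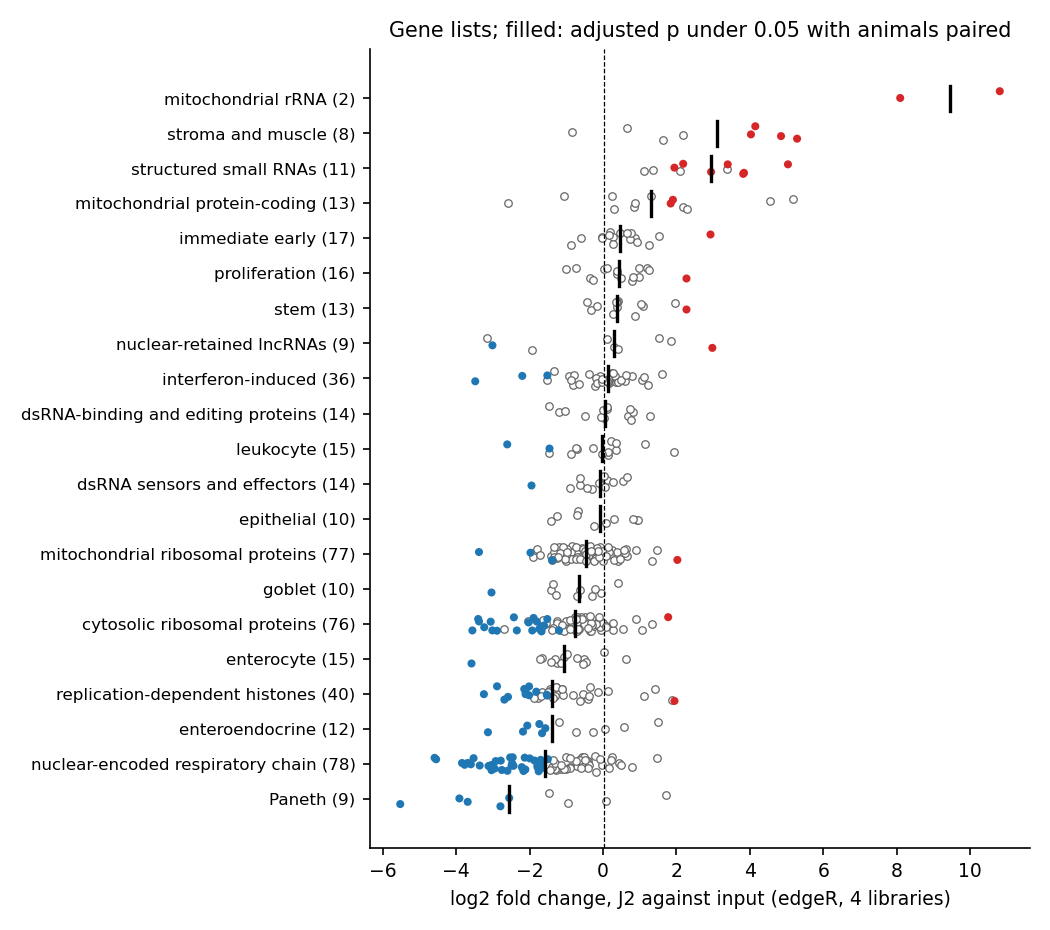
Each row is a gene list and each point 1 of its tested members, placed by J2 minus input on the log2 scale. Filled points passed the paired test at an adjusted p under 0.05, open points did not, and black bars give the list's median. Mitochondrial ribosomal RNA (median 9.45) and structured small RNAs (2.94) lie to the right, and Paneth markers (-2.55) and respiratory chain genes (-1.59) to the left.

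Transcripts of Paneth and enteroendocrine cells were low in J2, while most markers of goblet, stem and dividing cells passed in neither direction. Of 9 Paneth cell markers, 5 fell in the paired test and 0 rose, with a median of -2.55. The defensin gene Defa17 had 859 and 2365 counts in input and 3 and 16 in J2 (-5.52, SE 0.93, paired adjusted p 2.10e-11), and Defa24 had 5086 and 10937 in input and 181 and 176 in J2 (-3.69). Both J2 libraries were below both inputs for each. The antimicrobial genes Ang4 (-2.79) and Mptx2 (-2.55) also fell, while Itln1 (0.09) and Pla2g2a (1.71) did not pass. Defensin genes are near copies of each other, so their counts are uncertain.

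Of 12 enteroendocrine markers, 6 fell and 0 rose in the paired test, with a median of -1.39. They are the hormone genes Nts, Sst, Pyy, Cck and Sct and the serotonin enzyme Tph1. Nts, which encodes neurotensin, had 164 and 95 counts in input and 7 and 2 in J2 (-3.13), below input in both animals, while the lineage factor Neurod1 had 1.49 and did not pass. Of 10 goblet cell markers only Spink4 was called, lower, from 4494 and 9399 counts to 297 and 194 (-3.06). Of 15 enterocyte markers only Fabp2, which carries fatty acids, was called. It had 8701 and 8910 counts in input and 276 and 164 in J2 (-3.59, SE 0.62, paired adjusted p 0.00264). The enterocyte median of -1.07 differed between animals, at -0.49 in animal 1 and -2.35 in animal 2, and all 15 markers were lower in animal 2. Without the J2 library of animal 1 the median was -2.53 and without that of animal 2 it was -0.35.

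The 13 stem cell markers had a median of 0.38, and 1 rose in the paired test. That gene, Lgr5, the receptor that marks crypt base stem cells, had 33 and 56 counts in input and 65 and 59 in J2, or 2.82 and 4.33 CPM against 15.7 and 18.7 (2.26, SE 0.50, adjusted p 0.00441). The list's median was 0.02 without the J2 library of animal 2. Proliferation markers had a median of 0.44 over 16 genes, with Aurkb, a mitotic kinase, higher (2.25). Leaving out the same library gave -0.05 and 0.70. Of 10 general epithelial markers 0 passed in either test and 0 had an unadjusted p under 0.05, with a median of -0.08. Leukocyte markers had a median of -0.02 over 15 genes, with Gzma and Ccl5 lower in the paired test, beside 8.98% of all genes lower.

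Genes of the response to double-stranded RNA were near the level of the average gene in J2. Of 14 sensors and effectors 1 was called in the paired test, and the median was -0.07. That gene is Tlr3, the endosomal receptor of double-stranded RNA, which fell from 873 and 756 counts to 68 and 57 (-1.95, SE 0.39, paired adjusted p 0.00849). Both J2 libraries were below both inputs. The cytosolic sensors did not pass, with -0.63 for Ifih1, which encodes MDA5, -0.31 for Ddx58, which encodes RIG-I, -0.89 for Eif2ak2, which encodes PKR, and 0.66 for Zbp1, the sensor of left-handed helices. Of 14 proteins that bind or edit double-stranded RNA 0 passed in either test, with 3 lower at an unadjusted p under 0.05, from -1.47 for Prkra to 1.27 for Ilf2, with 0.69 for the editing enzyme Adar. Their median of 0.07 was -0.17 without TMM scaling. Among 36 interferon-induced genes the paired test called 3 lower, a share near the 8.98% of all genes, and 0 higher. B2m and Psmb8 were among the 3, and the median of the 36 was 0.12. The values in this paragraph are abundances of each mRNA in the pulldown and say nothing of the amount of the protein.

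Genes that maintain mitochondrial RNA were also near the average, with a median of 0.17 over 18 genes. Twnk, the mitochondrial DNA helicase, was higher in the paired test, and Slirp and Hsd17b10, which act on mitochondrial RNA, were lower. These few calls are near the shares of all genes, 4.28% higher and 8.98% lower. Immediate early genes, of which Myc was the 1 called, had a median of 0.47 over 17.

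Many noncoding genes were called lower in J2, most of them genes that passed the filter on low counts through input alone. In the annotation class TEC, transcripts still to be tested by experiment, 257 of 432 genes were lower in the paired test, and 250 of these passed it that way. The same held for 117 of the 124 antisense genes that were lower and for 34 of the 36 within introns of another gene, so these counts give no support for a direction. Of the lower protein-coding genes it held for 165 of 680. In the unpaired test 5 noncoding genes fell besides Gm24357. Gdap10 had 367 and 309 counts in input and 1 and 0 in J2, a level 200.1-fold lower over both animals (95% exact counting interval 35.8 to 7916). Ppnr had 368 and 360 counts in input and 3 and 4 in J2 (-4.91), 4933431E20Rik went from 538 and 414 to 8 and 6 (-4.33), Gm43745 from 414 and 305 to 2 and 1 (70.9-fold, interval 24.2 to 345) and E230020D15Rik from 357 and 355 to 4 and 2 (-5.12). All input values were above all J2 values for each, but all except 4933431E20Rik passed the filter through input alone. Of protein-coding genes, Lrrc19 fell there from 658 and 681 counts to 19 and 13 (-3.64) and 2010106E10Rik from 1143 and 1293 to 27 and 24 (-3.81). Reads outside genes, which unspliced RNA can give, were a smaller share of the J2 libraries than of input, and their part in these values was not tested.

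Transcript length and base composition moved with the J2 values. Across all 13886 genes with an annotated transcript, Spearman's rho with the log2 difference was 0.337 for GC content (0.397 in animal 1 and 0.220 in animal 2) and 0.178 for length (0.238 and 0.106). Genes share their libraries, so these are descriptions and no test is given. With protein-coding genes in 4 bins by length and 4 by GC content, the median difference ran from -0.91 for short genes of low GC content to 0.92 for long genes of high GC content. With a correction for GC content and length in the paired fit, 672 genes were higher and 596 lower, in place of 595 and 1250. The share of higher calls was then 53.0% in place of 32.2%.

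**Figure D5:**
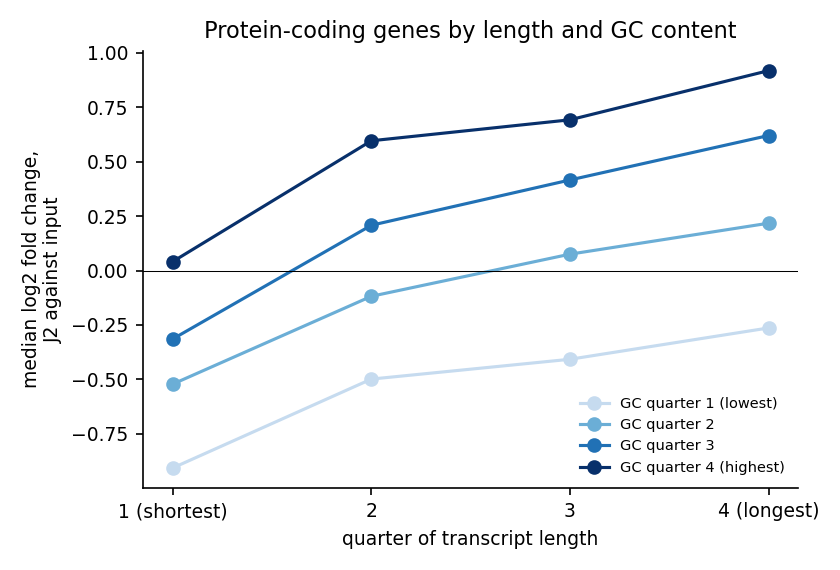
Median J2 minus input on the log2 scale for protein-coding genes, by bin of transcript length (horizontal axis, 4 bins) and bin of GC content (lines, 4 bins). The value rises with GC content in each length bin, from -0.91 for the shortest genes of lowest GC content to 0.92 for the longest genes of highest GC content.

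The antibody K1, also raised against double-stranded RNA, was used on the same animals, and J2 was compared with it directly without the input. Few genes passed a test of that difference. The unpaired test called 0 of 11336 genes (0%), with 25 at an unadjusted p under 0.05, where DESeq2 called 3 lower. With the animal as block 13 were called (0.115%), 1 higher in J2 (0.00882%) and 12 lower (0.106%). CT010467.1, annotated as ribosomal RNA, had 56 and 152 counts in J2 and 1063 and 1027 in K1 (-3.52). The 7SL genes Rn7s1 (-1.54) and Rn7s6 (-1.76) were lower in J2 than in K1, as was Lars2, the mitochondrial leucyl-tRNA synthetase (-2.30), with 97 and 133 counts against 372 and 514. Mptx2 (-1.52) and Selenok (-1.52) were lower too. Without a J2 library the unpaired test called 3 genes (animal 1) and 10 (animal 2), and without a K1 library 0. For mt-Rnr2 the difference between the antibodies was 0.03, and for mt-Nd5 it was -0.21, neither past the threshold.

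The difference between J2 and input in DKO was last compared with the same difference in control, where the antibody and the input come from other animals. The test of the interaction, without pairing, called 432 of 15923 genes (2.71%), 123 higher in DKO (0.772%) and 309 lower (1.94%). With the animal as block it called 0, while 4074 genes had an unadjusted p under 0.05 and DESeq2 without the block called 2018, so calls of single genes did not hold under the pairing. Without the DKO J2 library of animal 1 the unpaired test called 7100 genes and without that of animal 2 it called 4480, while it called 0 without any 1 of the other 6 libraries. In this paragraph control values and the interaction are from the fit of 8 libraries, and DKO values from the fit of 4. The interaction is therefore not exactly the printed DKO value minus the control value. mt-Rnr1 had a J2 minus input value of 3.46 in control and 8.09 in DKO (interaction 4.76, SE 0.83, adjusted p 0.0385, paired 0.0712). Terc had -0.36 in control and 2.94 in DKO, Eid3 -1.17 and 3.41, and Rn7s1 -1.45 and 1.94. Gm14963 had 1.46 in control and 4.16 in DKO. In contrast, Gm17541 had 5.12 in control and 5.32 in DKO, Cox7a2 -4.46 and -4.54, and Xist -3.18 and -3.01, and the interaction did not pass for these 3 (adjusted p 0.638, 0.984 and 0.835). Tlr3 had 0.19 in control and -1.95 in DKO. The J2 libraries of control were deeper, with 15359376 and 13308021 counts.

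The genes with the largest interaction values included some that were scarce in DKO input. Lrat, which esterifies retinol, had 15 and 41 counts in DKO input and 0 and 1 in DKO J2, where control had 348 and 300 in input and 1125 and 782 in J2. With so few DKO J2 counts no size is given for it. The potassium channel gene Kcnj2 had 62 and 91 counts in DKO input and 4 and 2 in DKO J2, where control had 141 and 143 and then 387 and 351 (-4.14, SE 0.48). Mmgt1 had 64 and 127 counts in DKO input and 5 and 7 in DKO J2, and 229 and 260 and then 1287 and 779 in control (-4.13, SE 0.54). For these 3 genes J2 was above input in control and below it in DKO. Cyp2c68, a cytochrome P450, went the other way. It had 0 and 0 counts in DKO input and 4 and 5 in DKO J2, where control had 673 and 974 and then 290 and 286, and no size is given against input libraries at 0. The paired adjusted p was 0.0712 for each of the 4 genes.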

How the data were processed

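RNA of intestinal epithelium was immunoprecipitated with J2 and sequenced beside input (random hexamers, strand-specific ribosomal RNA depletion, molecular identifiers, read pairs, per the labels' protocols). Per the submitters' processing notes, the tools were STAR 2.7.10b, UMI-tools 1.1.4, SAMtools 1.17 and HTSeq 2.0.2, with the build mm10 (GRCm38.p4). The authors deposited raw counts of reads per gene, in which strand was ignored according to the labels. Closing rows that name no gene were left out. The 48526 gene rows were matched to GENCODE M21 (48144 without the version suffix, 40692 with it).

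The tests used edgeR 4.0.16 with R 4.3.3 (TMM, filterByExpr with a count minimum of 10, quasi-likelihood test, Benjamini-Hochberg adjusted p under 0.05), and checked on simulated data. CPM use TMM sizes, and log2 CPM a prior count of 2. Folds against a group with 0 counts in each library are bounds, computed against 3 counts per library. With 1 to 3 counts in each library, or 0 in 1 of them, the ratio of summed counts per TMM size is given with a 95% Clopper-Pearson interval. Labels name the same animal for same-numbered libraries, so the numbers pair them, and deviations of an animal's input and J2 libraries from their group means correlated at 0.305. Alternatives were RLE or no scaling, TMM without mitochondrial genes, no filter, DESeq2 1.42.0, limma 3.58.1 voom, the replicate block alone, with thinning or with GC and length offsets, the control libraries added, and each library left out. Inverted repeats were found with blastn 2.17.0+ and folds with RNAfold 2.7.2.

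Genes were named by size of change among those called with at least 50 counts on average, a symbol that is not a clone name and no overlap between groups. As this left few names, the rule was also applied to the paired test, a choice made after seeing the data, and the remaining called genes and those shown for their sequence were likewise chosen after their values were seen. The members and lists were chosen with earlier results of these data known. Some called genes are not reported here.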

Additional observations from a re-analysis of the deposited data

Results flagged for a closer look

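For 23 of the genes described, the J2 minus input value differed between DKO and control in the unpaired interaction test, with adjusted p from 0.0291 to 0.0469, and for each of them the call was lost with the animal as replicate block. The values below are DKO minus control on the log2 scale. Of the small RNAs among them, Gm24357, a snoRNA gene, was lower in DKO (-3.67) and the others were higher. They were 5.82 for Rmrp, 3.39 for Terc, 3.47 for Rn7s1, 4.06 for Rn7s2, 3.78 for Rn7s6, 4.85 for Snora23 and 4.46 for Gm25395, a Cajal body RNA. CT010467.1, a longer gene annotated as ribosomal RNA, was higher by 7.18. Mitochondrial genes and their nuclear copies were also higher, at 4.76 for mt-Rnr1, 2.93 for mt-Atp8, 2.35 for mt-Co3, 2.38 for mt-Nd3, 2.54 for Gm11407 and 3.98 for Gm11408. Of the remaining genes, Eid3 (4.65), Gm37967 (4.52), Gm14963 (2.81), Lgr5 (2.16) and Nr2f6 (1.69) were higher, and Immp1l (-3.06), Lrrc19 (-2.15) and Tlr3 (-2.04) were lower. The sizes for Rmrp and Gm37967, with 3 and 3 counts in DKO input, and for Gm24357 and Immp1l, with 2 and 0 and with 2 and 1 counts in DKO J2, are fitted values that depend on the prior count and bound nothing.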

How the results depend on the processing

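The number of genes called in J2 against input depended on the test. It was 18 (6 higher, 12 lower) in the unpaired test, 20 with RLE scaling, 18 with TMM factors from nuclear genes, and 0 (0 and 0) with library totals alone. It was 2699 (963 and 1736) with no filter, 1339 (548 and 791) with DESeq2 and 1059 (292 and 767) with limma voom. With the replicate block it was 1845 (595 and 1250), with the block after thinning 1087 (365 and 722), with the block and GC and length offsets 1268 (672 and 596), with 8 libraries of both genotypes 4088 (1948 and 2140), and with those and the block 3398 (1633 and 1765). Leaving out each library gave 39 to 7726 (12 to 3477 higher, 27 to 4249 lower). J2 against K1 gave 0, but 2 with no filter (0 and 2), 3 with DESeq2 (0 and 3), 13 with the block (1 and 12), 16 after thinning with the block (3 and 13), 12 with GC and length offsets and the block (2 and 10), and 0 to 10 when libraries were left out (0 to 1 higher, 0 to 10 lower). DKO minus control gave 432 (123 and 309), but 672 without TMM (70 and 602), 2453 with no filter (776 and 1677), 2018 with DESeq2 (746 and 1272), 128 with voom (35 and 93), 0 in each fit with the block, and 0 to 7100 when libraries were left out (0 to 3120 higher, 0 to 3980 lower). The cause was not tested.

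Of 128 genes followed, 7 changed sign when 1 library was left out (Itln1, Kat2a, Pla2g2a, Rn7sk, Taf1d, mt-Co2 and mt-Nd4l) and 4 under another setting (Itln1, Kat2a, mt-Co1 and mt-Co2). With the block 0 changed sign, 82 then passed that had not, and 18 no longer passed with library totals alone. Rn7sk went from -1.22 without the J2 library of animal 2 to 1.94 without that of animal 1. The median of the proteins that bind or edit double-stranded RNA (0.07) became -0.17 without TMM, -0.066 with no filter and -0.00680 after thinning with the block, and ran from -0.087 to 0.037 when libraries were left out. The proliferation median ran from -0.046 without the J2 library of animal 2 to 0.892 without an input library, and the 1 mitochondrial tRNA tested had 1.51 with GC and length offsets and the block. Depth limits genes with few counts in J2, and the J2 library of animal 2 had the fewest counts.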
